A study of Mus musculus with 12 samples.

Results

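The genes described here are 10 genes that B cell precursors use to build and test their antigen receptor: Il7r, Rag1, Rag2, Dntt, Vpreb1, Vpreb3, Igll1, Cd79a, Cd79b and Blnk. They were taken by exact gene symbol from a table of 12199 genes, and all 10 were present. Total RNA from bone marrow was sequenced from 3 WT, 3 DF, 3 TF and 2 TFD libraries. DF mice were Dnmt3aFlox/+:MxCre with Flt3 ITD/+, so 1 Dnmt3a allele is removed by the interferon-inducible Mx-Cre and 1 Flt3 allele carries an internal tandem duplication. TF mice were Tet2+/- with Flt3ITD/+, the Tet2 allele being lost in the germline. TFD mice carried all 3 lesions with MxCre, and WT mice carried none. Every mutant group therefore shared the Flt3 duplication, and no group here had a Tet2 or Dnmt3a lesion alone. The labels give strain C57BL/6 for every sample. Per the study's methods, all mice, WT included, received poly(I:C) when 8 to 10 weeks old and their hematopoiesis was examined 8 to 9 weeks later, and the RNA came from the marrow used for that examination. The labels name MxCre only for DF and TFD, so WT and TF had poly(I:C) without a labelled Cre. The labels call the tissue mononuclear cells of whole bone marrow, the study's methods call it whole bone marrow, and the RNA was depleted of globin transcripts before library preparation. The study asked whether the double and triple genotypes differ in kind or in degree.

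A developing B cell assembles its immunoglobulin genes from V, D and J segments. Interleukin 7, read by the receptor chain Il7r, keeps the precursor alive and dividing. Rag1 and Rag2 together form the enzyme that cuts the DNA at the segments, and Dntt (terminal deoxynucleotidyl transferase) adds untemplated nucleotides at the joints. The first product, the mu heavy chain, is tested in the pre-B cell receptor, where Vpreb1 and Igll1 (lambda 5) stand in for the missing light chain. Vpreb3 is a related protein of the secretory pathway of B cell precursors. Cd79a and Cd79b are the signalling chains of both the pre-B and the mature receptor, and Blnk is the adaptor that links the activated receptor to its downstream enzymes. Rag1, Rag2, Dntt and Il7r are also used by T cell precursors. In the bone marrow they mark the pro-B and pre-B stages, as do Vpreb1 and Igll1. Cd79a, Cd79b, Blnk and Vpreb3 mark the B lineage more widely.

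By symbol, 9 of the 10 genes had a RefSeq promoter entry of build GRCm38.p6 (Cd79b was not among them). The start used there was the same as that of the gene in the deposited table for 5 of the 9, and lay 12 bases from it for Vpreb3, 14 for Cd79a, 36 for Rag2 and 314 for Blnk. The promoters of Rag1, Igll1 and Cd79a are shown as examples of the recombinase, the surrogate light chain and the signalling chain, because all of them hold the E box CAGGTG, a sequence that the E proteins of early B cells can bind. Each run is the 250 bases before the RefSeq start, 5′ to 3′ on the strand of the gene, with capitals for CAGGTG (or CACCTG, the same box on the other strand) and, in Igll1, for the EBF core CCCNNGGG. Rag1 is at chr2:101649533-101649782 on the minus strand, Igll1 at chr16:16863986-16864235 on the minus strand and Cd79a at chr7:24897247-24897496 on the plus strand.
Rag1: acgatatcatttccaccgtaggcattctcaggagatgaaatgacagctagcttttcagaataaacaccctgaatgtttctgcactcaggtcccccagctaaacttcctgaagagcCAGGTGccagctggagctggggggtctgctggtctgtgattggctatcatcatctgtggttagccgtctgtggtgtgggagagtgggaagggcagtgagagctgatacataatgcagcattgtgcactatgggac
Igll1: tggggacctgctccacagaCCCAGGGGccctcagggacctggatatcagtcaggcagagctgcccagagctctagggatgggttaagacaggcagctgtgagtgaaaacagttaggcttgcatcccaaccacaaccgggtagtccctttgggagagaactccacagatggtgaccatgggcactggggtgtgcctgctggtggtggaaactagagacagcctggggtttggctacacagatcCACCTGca
Cd79a: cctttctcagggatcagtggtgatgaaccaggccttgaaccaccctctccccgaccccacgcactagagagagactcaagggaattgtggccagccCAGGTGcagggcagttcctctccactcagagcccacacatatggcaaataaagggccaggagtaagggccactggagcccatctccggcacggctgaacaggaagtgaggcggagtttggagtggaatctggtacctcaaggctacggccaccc

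Over the window of 250 bases before to 50 after the start, searched on both strands, CAGGTG was found in 5 of the 9 promoters (Rag1, Vpreb1, Igll1, Cd79a and Blnk), against 20.2% of 32851 promoters of the same length. The general E box CANNTG, which includes CAGGTG, was found in 9 of 9 against 72.3%. The EBF core CCCNNGGG was found in 1 of 9 (Igll1) against 13.7%. The PU.1 core GAGGAA was found in 4 of 9 against 28.3%, the Ikaros core TGGGAA in 1 of 9 (Rag1) against 25.6%, and the TATA box TATAAA in 0 of 9 against 13.6%. These matches describe letters in a window and are not sites of measured binding.

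In WT marrow all 10 genes were read in every library. Scaled for gene length and depth (RPKM, mean ± SD, n = 3), Cd79b had the highest level, 89.2 ± 14.7, above all values of the next gene. Vpreb3 at 48.1 ± 10.1 and Cd79a at 38.1 ± 6.18 overlapped each other. Blnk at 20.1 ± 0.775, Il7r at 19.9 ± 2.998, Dntt at 18.7 ± 5.31, Igll1 at 17.2 ± 3.54 and Rag1 at 17.0 ± 4.62 formed a run in which each gene overlapped its neighbour. Vpreb1 at 10.6 ± 0.265 and Rag2 at 2.66 ± 0.355 were separate from the genes above them.

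All 10 genes were lower in DF, TF and TFD marrow than in WT marrow. In sums of reads normalised to library size, DF marrow held between 0.539% (Rag1) and 12.9% (Cd79b) of the WT level, TF marrow between 1.27% (Rag2) and 18.95% (Cd79b), and TFD marrow between 0.198% (Rag1) and 11.6% (Cd79b). The summed level of all 10 genes was 411.6 to 526.8 CPM (read counts scaled to library size) in WT libraries, 18.3 to 28.3 in DF, 31.7 to 85.0 in TF and 25.1 to 27.5 in TFD. In bulk marrow, fewer cells of the B lineage and less RNA per cell cannot be told apart.

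**Figure D1:**
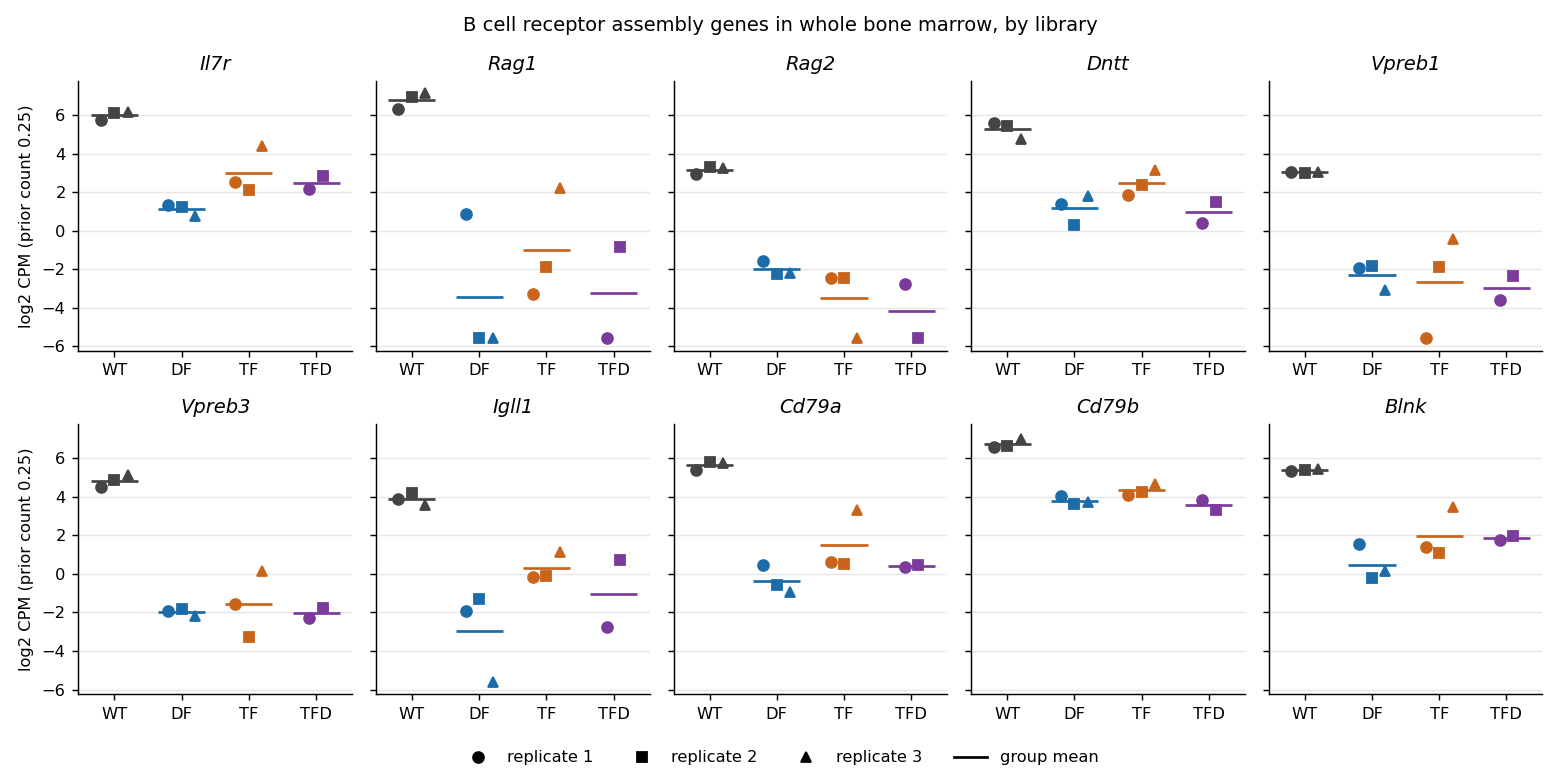
Level of each gene in each library, as log2 CPM with a prior count of 0.25; symbols mark the replicate and bars the group mean. All mutant libraries lie below all WT libraries for each of the 10 genes, and TF replicate 3 (orange triangle) is the highest mutant library for 9 of them; points near -6 are libraries with 0 reads.

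Il7r, the receptor chain for interleukin 7, had 52.8, 67.7 and 70.8 CPM in WT replicates 1 to 3. It had 2.46, 2.32 and 1.68 CPM in DF, 5.74, 4.25 and 20.9 CPM in TF, and 4.38 and 7.13 CPM in TFD. No mutant library reached the WT range, and TF replicate 3 stood above the other 7 mutant libraries. By edgeR's quasi-likelihood test, with Benjamini-Hochberg adjustment over all 12175 genes tested, the log2 fold change from WT was -4.86 ± 0.51 (SE, adjusted p = 2.648e-05) for DF marrow, -2.64 ± 0.43 (SE, adjusted p = 0.0006339) for TF marrow and -3.49 ± 0.53 (SE, adjusted p = 0.000537) for TFD marrow. Without TF replicate 3 the TF value was -3.67.

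Rag1, the catalytic subunit of the recombinase, had the largest fitted fall of the 9 genes tested in all 3 genotypes, although Vpreb3 (-6.97 against -6.82) passed it in DF without DF replicate 2, as it did (-5.65 against -5.60) in TF without TF replicate 1. WT libraries held 79.5, 121.3 and 139.7 CPM. DF held 1.83 CPM in replicate 1 (23 reads) and 0 reads in replicates 2 and 3, which allows up to 0.193 and 0.297 CPM. TF held 0.0808, 0.245 and 4.56 CPM (1, 3 and 50 reads), and TFD held 0 reads in replicate 1, which allows up to 0.188 CPM, and 0.535 CPM (6 reads) in replicate 2. The mutant libraries thus ran from no reads to 50 reads, and 1 library in each of DF and TF held most of the reads of its group. The fitted log2 fold change was -7.53 ± 0.87 (SE, adjusted p = 4.789e-05) for DF marrow, -6.19 ± 0.78 (SE, adjusted p = 0.0001007) for TF marrow and -8.92 ± 1.18 (SE, adjusted p = 0.0001965) for TFD marrow. Without DF replicate 1 the DF group held 0 reads. Without DF replicate 2 the DF value was -6.82. The TF value was -9.36 without TF replicate 3 and -5.60 without TF replicate 1, and the TFD value was -7.70 without TFD replicate 1, while without TFD replicate 2 the TFD group held 0 reads. With so few reads the size of these folds depends on the prior count. In summed reads, WT exceeded DF 186-fold (95% counting interval 123.5 to 293.1), TF 73.5-fold (56.2 to 98.1) and TFD 506-fold (232.3 to 1380).

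Rag2, the partner of Rag1, had 93, 80 and 106 reads in WT, 4, 3 and 2 reads in DF, 2, 2 and 0 in TF, and 2 and 0 in TFD. No mutant library held more than 4 reads. It exceeded 0.5 CPM only in the 3 WT libraries, so the filter (over 0.5 CPM in more than 3 libraries) removed it along with 23 other genes. In a fit without the filter its log2 fold change was -5.19 ± 0.43 (SE, adjusted p = 7.306e-06) for DF marrow, -6.20 ± 0.49 (SE, adjusted p = 3.626e-06) for TF marrow and -6.76 ± 0.60 (SE, adjusted p = 1.374e-05) for TFD marrow by edgeR. The ratio of WT to TFD rests on 2 TFD reads and was 120.8 with a counting interval of 33.1 to 1002. Rag2 was the 1 gene of the 10 for which TF replicate 3 was not the highest mutant library: it had 0 reads there, which allows up to 0.274 CPM.

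Dntt, the nucleotide-adding transferase, had 48.8, 43.7 and 27.1 CPM in WT. It had 2.62, 1.22 and 3.46 CPM in DF, 3.64, 5.15 and 8.76 CPM in TF, and 1.31 and 2.76 CPM in TFD. The WT values spread more than for most of the other genes, but the lowest WT library was still above every mutant library. The log2 fold change was -4.08 ± 0.40 (SE) for DF, -2.78 ± 0.36 for TF and -4.34 ± 0.48 for TFD, with edgeR adjusted p values of 1.899e-05, 0.0001346 and 5.7e-05.

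The surrogate light chain genes and Vpreb3 fell to between 0 and 24 reads per mutant library. Vpreb1 had 101, 64 and 92 reads in WT, 3, 4 and 1 in DF, 0, 3 and 8 in TF, and 1 and 2 in TFD. Igll1 had 181, 146 and 133 reads in WT, 3, 6 and 0 in DF, 11, 11 and 24 in TF, and 2 and 18 in TFD. Vpreb3 had 278, 234 and 391 reads in WT, 3, 4 and 2 in DF, 4, 1 and 12 in TF, and 3 and 3 in TFD. All WT libraries were far above all mutant libraries for these 3 genes, and Igll1 alone kept more than 10 reads in every TF library. The log2 fold changes in DF, TF and TFD were -5.23, -4.66 and -6.07 for Vpreb1, -5.94, -3.50 and -4.24 for Igll1, and -6.88, -5.88 and -6.96 for Vpreb3, and all passed the test. Without TF replicate 3 the TF values were -5.95 for Vpreb1, -4.04 for Igll1 and -7.08 for Vpreb3, and without TF replicate 1 that of Vpreb1 was -4.06. The Vpreb1 ratio of WT to TFD rests on 3 TFD reads and was 74.2 (counting interval 25.1 to 362.0). Vpreb1 and Vpreb3 passed the filter through the 3 WT libraries and 1 mutant library, so their place among the genes tested rests mostly on WT. Vpreb1 in TFD was at -5.43 without TFD replicate 1 and -6.80 without TFD replicate 2, and Igll1 in DF at -6.72 without DF replicate 2. Igll1 in TFD fell by 3.21 without TFD replicate 1 and by 6.78 without TFD replicate 2. Of the 1238 words of 50 bases in Vpreb1 transcripts, 18.8% also occur in Vpreb2, so reads could be lost or split between these copies and the Vpreb1 level is uncertain.

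The signalling chains differed in how much was left. Cd79a had 41.2, 56.6 and 53.9 CPM in WT, 1.35, 0.644 and 0.495 CPM in DF, 1.53, 1.39 and 9.94 CPM in TF, and 1.25 and 1.34 CPM in TFD. Cd79b had 95.3, 98.0 and 127.0 CPM in WT, 16.2, 12.2 and 13.3 CPM in DF, 16.7, 19.1 and 25.7 CPM in TF, and 14.3 and 9.80 CPM in TFD. Cd79b kept at least 110 reads in every mutant library, and Cd79a exceeded 100 reads in TF replicate 3 alone. The log2 fold change of Cd79a was -5.90 ± 0.63 (SE, adjusted p = 3.166e-05) for DF marrow, -3.59 ± 0.52 (SE, adjusted p = 0.0002906) for TF marrow and -5.28 ± 0.71 (SE, adjusted p = 0.0002136) for TFD marrow, and without TF replicate 3 the TF value was -5.10. That of Cd79b was -2.95 ± 0.20 (SE, adjusted p = 2.106e-06) for DF marrow, -2.38 ± 0.19 (SE, adjusted p = 4.163e-06) for TF marrow and -3.14 ± 0.23 (SE, adjusted p = 4.626e-06) for TFD marrow, the smallest fitted fall of the 9 genes tested in every genotype. Il7r fell less than Cd79b in TF without TF replicate 2 (-2.27 against -2.33), and Il7r (-3.16), Igll1 (-3.21) and Blnk (-3.42) fell less than Cd79b (-3.44) in TFD without TFD replicate 1.

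Blnk, the adaptor, had 40.4, 42.5 and 43.6 CPM in WT. It had 2.86, 0.837 and 1.09 CPM in DF, 2.59, 2.13 and 11.1 CPM in TF, and 3.38 and 3.92 CPM in TFD. No mutant library reached the WT range, and TF replicate 3 was again the highest mutant library. The log2 fold change was -4.73 ± 0.55 (SE) for DF, -3.02 ± 0.48 for TF (-4.15 without TF replicate 3) and -3.53 ± 0.58 for TFD, with edgeR adjusted p values of 4.848e-05, 0.0005374 and 0.0008731. Without DF replicate 1 the DF value was -5.49.

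**Figure D2:**
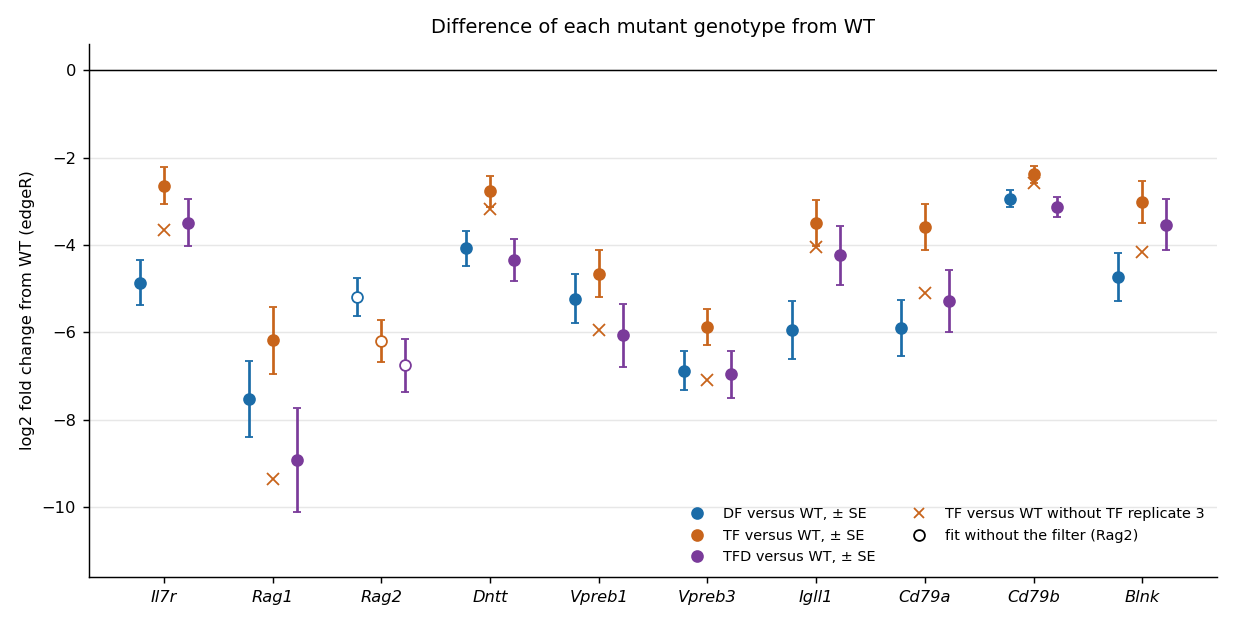
Log2 fold change of each gene from WT in DF (blue), TF (orange) and TFD (purple), with bars of ± SE from edgeR; open circles (Rag2) come from the fit without the filter, and crosses give TF without TF replicate 3. All points lie below 0, Cd79b is nearest to it, and the crosses lie below the TF circles for each of the 9 genes that have them.

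Of the 9 genes that passed the filter, all 9 were called lower than WT in each of DF, TF and TFD at adjusted p under 0.05. Over all genes tested, 16.6%, 15.6% and 11.6% were called lower in DF, TF and TFD. The median log2 fold change of the 9 genes was -5.23, -3.50 and -4.34 for the 3 genotypes, beside medians over all genes of 0.05, 0.02 and 0.01. The TF median was -4.15 without TF replicate 3, and the TFD median was -3.84 without TFD replicate 1 and -5.32 without TFD replicate 2. All 8 mutant libraries were below every WT library for all 9 of these genes, which was so for 11.8% of all genes tested. It was also so for Rag2, which was not among the genes tested. The 3 comparisons share the WT libraries, so they are not independent of each other.

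The mutant genotypes were next compared with each other, since the study asked whether the triple lesion differs from the double ones. For DF versus TF, all 9 fold changes were below 0 (median -1.34), and 1 gene was called, Il7r at -2.22 ± 0.52 (adjusted p = 0.02778, 3 of 3 DF libraries below every TF library), while 4.27% of all genes were called lower. Without TF replicate 3 the Il7r value was -1.19 (adjusted p = 0.0327). The Il7r call was lost when only DF and TF libraries were fitted (adjusted p = 0.05889) and when any 1 DF library was left out (adjusted p 0.07012 to 0.1069). Dntt at -1.30, Igll1 at -2.44, Cd79a at -2.31, Cd79b at -0.56 and Blnk at -1.71 had unadjusted p under 0.05 but adjusted p of 0.0928, 0.1048, 0.07844, 0.1188 and 0.116. Over all genes, 2316 of 12175 had unadjusted p under 0.05. Igll1 passed without TFD replicate 1 (adjusted p = 0.03512) or TFD replicate 2 (0.03366), Cd79a without TF replicate 1 (0.03437) or TF replicate 2 (0.01886), and Blnk without TF replicate 2 (0.03298). Leaving out TF replicate 3 gave smaller values, of -0.80 for Cd79a (adjusted p = 0.406), -0.57 for Blnk (0.6286) and -1.90 for Igll1 (0.3633). Without DF replicate 1 that of Blnk was -2.47, and without DF replicate 2 that of Igll1 was -3.22. DESeq2 called 4 genes (Il7r, Dntt, Cd79a and Cd79b) lower, with 743 of all genes called lower. The fold changes of Rag1, Vpreb1 and Vpreb3 turned positive without TF replicate 3, at 1.83, 0.72 and 0.20.

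For DF versus TFD, 0 of the 9 genes were called by edgeR or DESeq2, and 1 had an unadjusted p under 0.05 (Il7r, -1.37 ± 0.59, adjusted p = 0.3157). Of all 12175 genes tested, 0% were called lower and 1727 had an unadjusted p under 0.05. Without TF replicate 3, which changes the shared spread, Il7r passed at -1.37 (adjusted p = 0.01963). With 1 library left out, up to 174 of all genes were called lower. For TF versus TFD, 0 of the 9 genes were called by edgeR, with 0.00821% of all genes called lower. Unadjusted p was under 0.05 for 3 genes: Dntt at 1.56 ± 0.49, Cd79a at 1.69 ± 0.75 and Cd79b at 0.76 ± 0.22, each higher in all 3 TF libraries than in both TFD libraries. Over all genes, 1068 of 12175 had unadjusted p under 0.05, and separation of this kind was not counted. The Cd79a value was 0.18 without TF replicate 3 (adjusted p = 0.9606). DESeq2 called Dntt (1.54, adjusted p = 0.04911). With 2 TFD libraries, these comparisons do not show that the genotypes are alike.

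The genes did not fall by the same amount. To set them on 1 scale, the log2 CPM of Cd79a, a chain carried through all B cell stages by background knowledge, was subtracted within each library, and the 3 WT libraries were compared with all 8 mutant libraries by a two-sided exact permutation test over 165 splits, for which the smallest possible p is 0.006061. Cd79b was 1.08 ± 0.249 (SD, n = 3) above Cd79a in WT and 3.42 ± 0.991 (SD, n = 8) above it in mutants, a difference of 2.34 (exact permutation, p adjusted over 9 ratios = 0.01818). Il7r rose against Cd79a from 0.337 to 1.64, a difference of 1.31, and Blnk from -0.250 to 0.877, a difference of 1.13 (exact permutation, adjusted p = 0.01818 for each). For Cd79b, Il7r and Blnk, all 8 mutant libraries lay above every WT library. All 9 ratios share Cd79a, which had 5 to 20 reads in every mutant library except TF replicate 3 (109 reads). These 3 rises are therefore not independent of each other. Dntt differed by 1.45, with 6 of 8 mutant libraries above every WT library (exact permutation, adjusted p = 0.06364).

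Rag1 and Vpreb3 moved the other way. Rag1 was 1.14 ± 0.216 (SD, n = 3) above Cd79a in WT and -2.99 ± 2.23 (SD, n = 8) in mutants, a difference of -4.13, and Vpreb3 differed by -1.54, with all 8 mutant libraries below every WT library for both (exact permutation, adjusted p = 0.03273 for each). Rag1 reached 0.430 in DF replicate 1 and lay between -5.94 and -1.12 in the other 7 mutant libraries. The differences of Rag2 (-1.14), Vpreb1 (-0.49) and Igll1 (-0.01) did not pass (exact permutation, adjusted p = 0.7159, 0.7159 and 0.9939). Mutant libraries hold 24 reads or fewer of Rag2, Vpreb1, Vpreb3 and Igll1, and Rag1 had 0 reads in 3 of the 8, so the sizes of these ratios depend on the prior count. With a prior count of 2 the Rag1 difference was -2.87 (exact permutation, adjusted p = 0.01364) and the Vpreb3 difference -1.06 (exact permutation, adjusted p = 0.07273). The permutation test pools 3 genotypes. With 1 WT library left out only 45 splits remain and the smallest possible p is 0.0222 before adjustment, so that setting says little about these calls. The Rag1 call was lost without TF replicate 1 (-3.99) or TF replicate 2 (-4.21), at adjusted p of 0.05625 and 0.06, and the Vpreb3 call without DF replicate 1 (-1.54), TF replicate 1 (-1.57) or TFD replicate 2 (-1.56), at 0.06 each, and without TF replicate 3 (-1.43) or TFD replicate 1 (-1.51), at 0.05 each. Dntt passed without TF replicate 3 (1.63, exact permutation, adjusted p = 0.045).

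**Figure D3:**
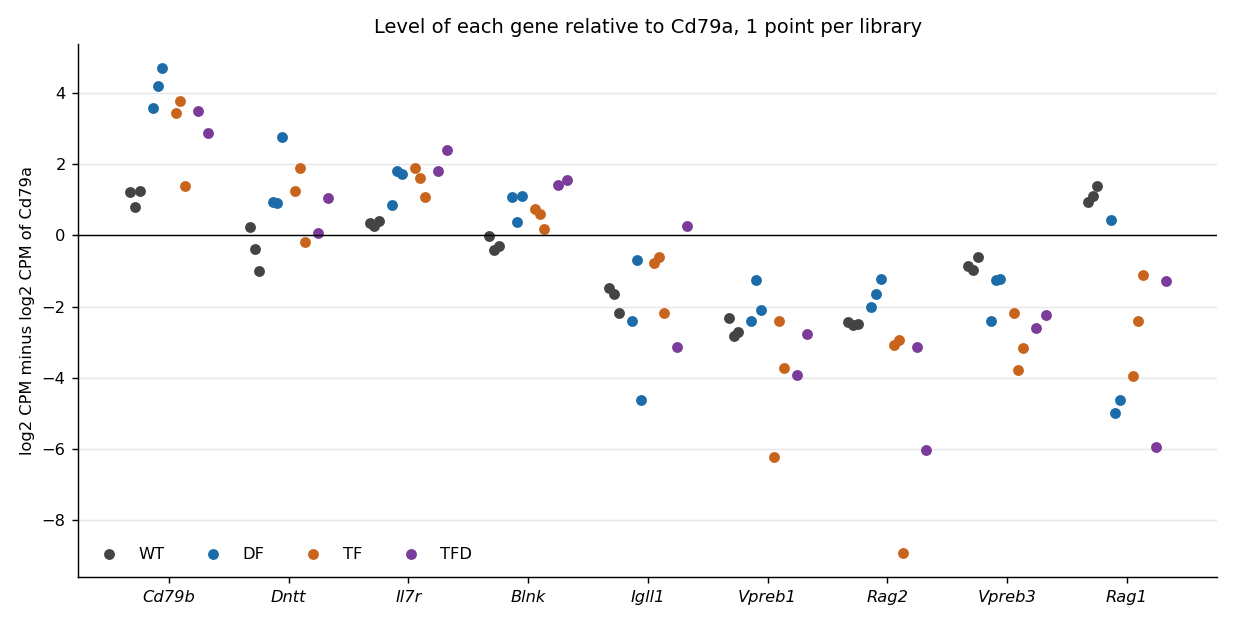
Log2 CPM of each gene minus that of Cd79a, 1 point per library, for WT (grey), DF (blue), TF (orange) and TFD (purple). Cd79b, Il7r and Blnk are higher against Cd79a in all 8 mutant libraries than in WT, and Rag1 and Vpreb3 are lower in all 8; the points below -4 come from libraries with 0 reads of the gene.

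TF replicate 3 stood apart from the other mutant libraries. The median log2 difference of the 10 genes from the WT mean was -2.53 in it, against -4.51 and -4.62 in the other TF libraries, -4.85 to -5.73 in DF, and -5.62 and -4.50 in TFD. In the same library the summed level of T cell markers was 129 CPM against 31.8 to 55.8 in the other mutant libraries and 108.4 to 138.2 in WT, and no T cell marker was at 0 in every library of a group. That of plasmacytoid dendritic cell markers was 579.8 CPM against 296.7 to 331.5 in WT, and that of erythroid markers 971.2 against 865.7 to 1081 in WT. That of mature B cell markers was 1863 CPM against 856.4 to 985.8 in WT, of which Cd74, an antigen presentation gene not limited to B cells, gave 1704 CPM, and without Cd74 it was 158.5 CPM against 74.1 to 95.4 in the other mutant libraries and 456.1 to 494.3 in WT. The part of these cells in the levels of Il7r, Rag1 and Dntt was not tested. TF replicate 3, WT replicate 3 and TFD replicate 2 are also the libraries with over 10000 Xist reads, and a term for them left all 9 genes called lower in each comparison with WT. DF replicate 1 had 538 Xist reads, and the remaining libraries had 18 to 32.

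Other genes of the same pathways were taken from lists, and examples beyond the most and least changed gene of each list were chosen after their values were seen. In the interleukin 7 receptor pathway, 10 of 12 listed genes were in the table (the cytokines Il7 and Tslp are not analysed here). Of these, 2 fell and 5 rose in DF, 1 fell and 5 rose in TF, and 2 fell and 5 rose in TFD, with medians of 0.36, 0.18 and 0.29. Socs1, among those that fell in TFD, stayed called in 9 of 18 alternatives. Over all genes tested, 21%, 19% and 14.7% were called higher in DF, TF and TFD, beside the shares called lower given above. Cish, a feedback inhibitor induced by Stat5, rose by 1.32 ± 0.24, 1.26 ± 0.24 and 1.98 ± 0.25 (log2, SE). Crlf2, the receptor for Tslp, rose by 0.98, 0.78 and 0.64, and the kinase Jak1 had log2 fold changes of -0.50, -0.58 and -0.50, each past the test. Il2rg, the common gamma chain that pairs with Il7r, fell by 0.9975 in DF and had values of -0.41 in TF and -0.71 in TFD that did not pass (without TF replicate 3 both passed, at -0.90 with adjusted p = 0.0005565 and -0.71 with adjusted p = 0.003271, and without TF replicate 2 the TFD value passed at 0.04931). Jak3, the kinase bound to that chain, had values of 0.50, 0.04 and 0.24 that did not pass, although the DF value passed in 6 of 18 alternatives, at adjusted p = 0.02819 to 0.04732, among them without WT replicate 1 (0.64), DF replicate 3 (0.59), TF replicate 3 (0.50) or TFD replicate 1 (0.50). In place of the 5 genes that rose in DF, there were 4 with DESeq2, 3 with RLE size factors and 2 when scaled by library totals alone, and Stat5a (0.28 in DF) fell short in all 3 (adjusted p = 0.06137, 0.05482 and 0.1132). The Stat5a call in DF was also lost without any 1 WT library, DF replicate 1 or DF replicate 3 (adjusted p 0.06588 to 0.09161), and that in TFD without TFD replicate 2 (adjusted p = 0.07727). In fits of only the groups compared, Stat5a missed the threshold in DF (adjusted p = 0.08205) and TFD (0.09133). The Crlf2 call in TFD was lost without WT replicate 2 (adjusted p = 0.06675), WT replicate 3 (0.0628) or TFD replicate 1 (0.1572). The Jak1 call in TFD was lost without WT replicate 2 (adjusted p = 0.05715), TFD replicate 1 (0.0527) or TFD replicate 2 (0.09439).

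In V(D)J joining and repair, which closes the breaks made by the recombinase, 7 of 12 genes fell in DF and 5 in each of TF and TFD, and 1 rose in every genotype. Xrcc5 (Ku80), which holds DNA ends, had log2 fold changes of -1.58, -1.69 and -2.08, its partner Xrcc6 (Ku70) -0.95, -0.80 and -0.94, and the ligase Lig4 -1.36, -1.56 and -1.84, all past the test. The gap-filling polymerases went different ways: Polm, a relative of Dntt, fell by 1.04, 1.23 and 0.87, and Poll rose by 0.68, 0.51 and 0.61. The Poll call in TF was lost without WT replicate 1, 2 or 3 (adjusted p = 0.05777, 0.06071 and 0.08013) or TF replicate 1 (0.1222), and that in TFD without WT replicate 3 (0.06233) or TFD replicate 1 (0.1771). The Polm call in TFD was lost without TFD replicate 1 (adjusted p = 0.07002). The damage kinase Atm had values of -0.11, -0.08 and -0.03 that did not pass. These repair genes are used in all cells, and their falls were smaller than those of Rag1 and Dntt.

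Among the genes of receptor proximal signalling, 5 of 12 fell in each genotype, while 3 rose in each of DF and TFD and 1 in TF, near or below the shares of all genes called higher in DF and TF. With DESeq2, 4 fell in each genotype and 2 rose in TF, and without TF replicate 3 also 2 rose in TF. The B cell kinase Blk had values of -7.13, -3.88 and -5.91, while Syk, the kinase that binds phosphorylated Cd79a and Cd79b, had -0.52, -0.74 and -0.52, all past the test (Blk was at -6.52 in TF without TF replicate 3, and at -8.77 and -6.42 in DF without DF replicates 1 and 2; in a fit of only TFD and WT libraries the Syk value missed it, adjusted p = 0.05045). Btk, which acts after Blnk, had values of 0.02, 0.05 and 0.06 that did not pass. Pik3cd, a catalytic subunit used by many blood cells, rose by 0.55, 0.51 and 0.53.

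Among transcription factors of early B cells, 13 of 15 fell in DF, 12 in TF and 11 in TFD, and 0 rose. Pax5, the commitment factor, had log2 fold changes of -7.53, -4.77 and -7.98, and Ebf1, which acts before it, -6.42, -5.49 and -6.95. Without TF replicate 3 the TF values were -7.87 for Pax5 and -6.97 for Ebf1, and without DF replicate 1 the DF values were -9.31 and -7.35. In TFD, Pax5 was at -6.79 without TFD replicate 1 and -11.56 without TFD replicate 2, and Ebf1 at -7.72 without TFD replicate 1. Foxo1, a factor that drives Rag1 and Rag2 transcription, fell by 2.37, 1.56 and 1.57, the last of which did not pass without TFD replicate 1 (-1.09, adjusted p = 0.06583) and was -2.24 without TFD replicate 2. Tcf3, which encodes the E proteins E12 and E47, had -0.87, -0.63 and -0.88, all past the test. Erg had values of 0.36, -0.10 and -0.03 that did not pass. The medians of the list were -1.94, -0.70 and -0.88.

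**Figure D4:**
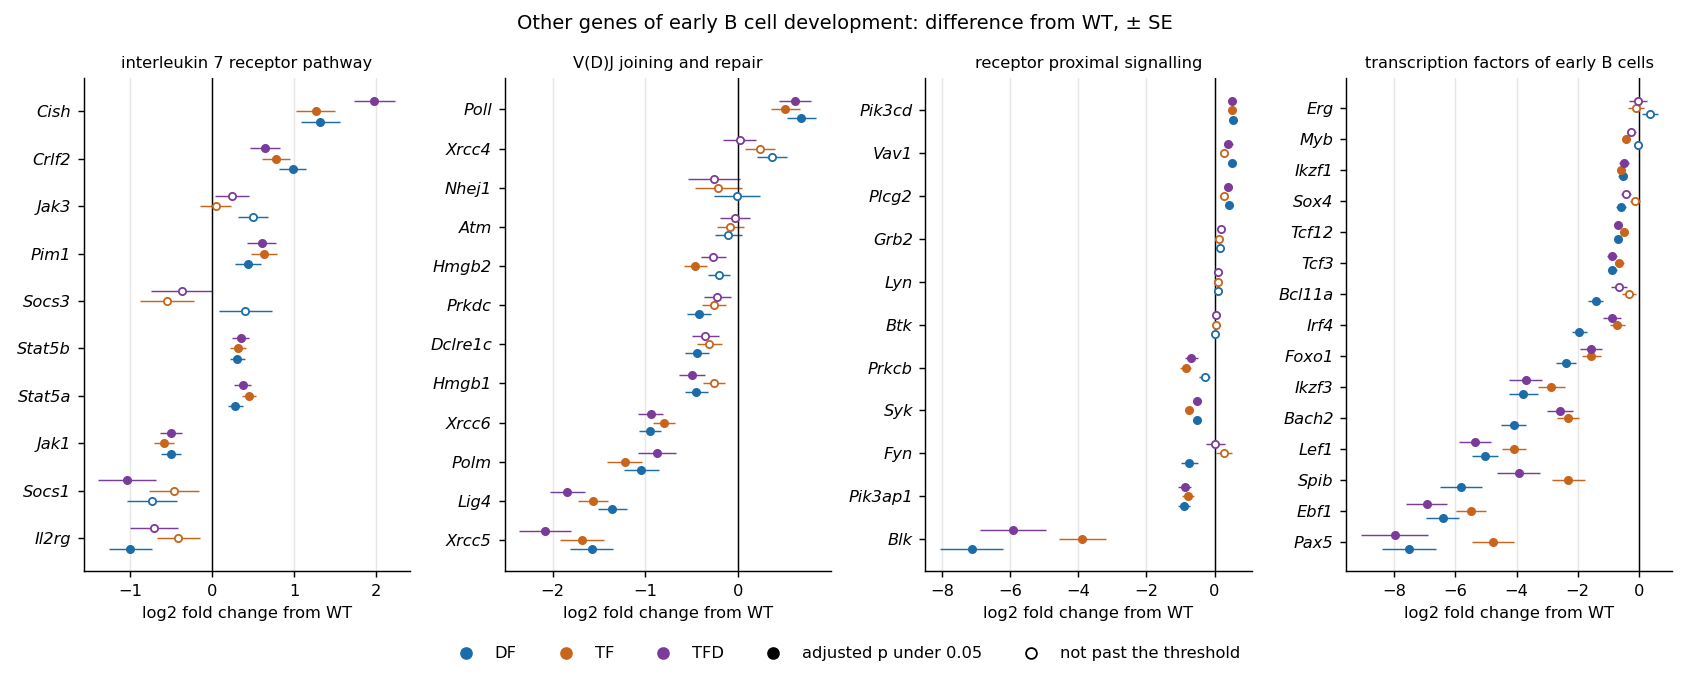
Log2 fold change from WT (± SE) of listed genes of 4 groups (1 counted gene of receptor signalling is not drawn) in DF (blue), TF (orange) and TFD (purple); filled circles passed the test at adjusted p under 0.05. Genes specific to B cells (Blk, Ebf1, Pax5) lie at the far left, and Cish is the gene of the interleukin 7 receptor group that lies furthest right.

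The depth was 8274153 to 15900904 reads in genes per library, and 12155 to 12195 genes were detected in each. Tet2 was at 147.8 to 169.1 CPM in WT, 195.5 to 245.6 in DF, 136.0 to 205.0 in TF and 162.6 to 209.0 in TFD, and Dnmt3a at 30.9 to 57.8, 38.0 to 46.4, 57.7 to 86.2 and 54.4 to 58.6 CPM. Reads summed over a whole gene need not show the loss of part of 1 allele, so these levels do not check the genotypes. Flt3 was higher than WT in DF, TF and TFD by 0.93, 1.38 and 1.94 on the log2 scale, the DF value not passing without WT replicate 2 (0.88, adjusted p = 0.06322), WT replicate 3 (0.79, adjusted p = 0.0836) or DF replicate 1 (0.71, adjusted p = 0.09363), and the TFD value being 1.27 without TFD replicate 2. Of 12 mature B cell markers, 11 fell in DF, 10 in TF and 11 in TFD, and 1 rose in TF (Cd74, 1.30, adjusted p = 0.04247). The Cd74 call was lost without WT replicate 1, 2 or 3, DF replicate 2, TF replicate 1 or TF replicate 3 (adjusted p 0.05793 to 0.1492), with DESeq2 (0.05331) and with a replicate block (0.05733), the value without TF replicate 3 being 0.82. Of 14 T cell markers, 11, 4 and 8 fell (9 in TF without TF replicate 3), and of 10 monocyte and macrophage markers, 9, 9 and 8 rose. Of 8 erythroid markers, 8, 6 and 6 fell (medians -3.94, -1.21 and -2.01) and 0 rose. Of 10 NK cell markers, 6, 5 and 5 fell and 1, 2 and 0 rose. Of 7 plasma cell markers, 5, 1 and 5 fell and 1, 0 and 0 rose, and 5 fell in TF without TF replicate 3. Of 11 granulocyte markers, 0, 2 and 0 fell and 4, 1 and 2 rose. Of 11 stem and progenitor markers, 4, 1 and 3 fell and 3, 2 and 3 rose (4 and 3 in TF without TF replicate 3). Beside all marker counts given here, 16.6%, 15.6% and 11.6% of all genes tested were called lower, and 21%, 19% and 14.7% higher. Of 10 plasmacytoid dendritic cell markers, 7, 2 and 4 fell and 1, 3 and 0 rose (medians -4.31, 0.10 and -1.79). The TF medians without TF replicate 3 were -1.9638 for erythroid and -1.33 for plasmacytoid dendritic cell markers, and 4 of the latter fell and 2 rose. The part of a shift in cell types in the levels of the 10 genes was not tested. Nothing in the labels says which mice share a litter or day, so p-values measure the spread between these libraries.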

How the data were processed

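The genes and lists were chosen with earlier results of these data known. The authors aligned reads with STAR to mm10 and counted them with featureCounts, as raw counts per gene without strand setting or version given in the sources used here, and deposited a table already limited to 12199 genes, with gene length in bases and log2 CPM (prior count 0.25, largest difference from recomputed values 5e-09). TFD replicate 3 has no column and was not analysed here. Counts were tested with edgeR 4.0.16 (R 4.3.3; TMM, 1 mean per genotype over 11 libraries, CPM over 0.5 in more than 3 libraries, 12175 genes, Benjamini-Hochberg, threshold 0.05). On simulated data for 12175 genes the test was checked before use. RPKM used the deposited gene length. Counting intervals are 95% exact and floors are 3 counts; both cover counting error only. Ratios to Cd79a and their exact permutation test were computed with numpy 2.4.6. Alternatives were DESeq2 1.42.0, other size factors, no filter, only the groups compared, a replicate block, each library left out, and a term for libraries with Xist reads, chosen after seeing the data. Named genes were the 10 genes, the targeted genes, the most and least changed gene of each list, and chosen examples; 1 listed gene is counted but not reported here by name. Promoters are from RefSeq (GRCm38.p6).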

Additional observations from a re-analysis of the deposited data

How the results depend on the processing

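All 486 recomputed values of the 9 genes against WT (18 alternatives each) stayed called and lower, with adjusted p up to 0.01548. For counts of these genes called, DF versus TF had 1 in the text, 4 with DESeq2, 0 in a fit of only the groups compared and 0 to 3 with 1 library left out. DF versus TFD had 0 to 1 with 1 library left out, and TF versus TFD had 1 with DESeq2.

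Deviations of libraries from their group means were correlated between groups. Libraries with the same replicate number had values of -0.2987 to 0.2472 over 15 pairs (median 0.0293), and those with different numbers of -0.2246 to 0.2987. With 2 or 3 libraries per group, these values cannot decide whether the numbers pair the libraries. With a replicate block, the 9 genes kept every call and gained none, Vpreb3 in DF versus TFD was -0.1446 and Atm in TFD versus WT 0.0046, and DF versus TFD had 34 of all genes lower and 8 higher in place of 0 and 0.

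Small values changed sign in some settings, and the cause was not tested. Scaled by library totals, Vpreb3 in DF versus TFD was -0.004 and Btk in DF versus WT -0.067. Btk in DF versus WT was also -0.0254 with DESeq2, -0.0258 with RLE factors and -0.0174 with only the groups compared. With the term for libraries with Xist reads, Dnmt3a in DF versus WT was 0.0036 and Erg in TFD versus WT 0.0134. With a prior count of 2, the ratio to Cd79a differed by 0.0017 for Rag2, 0.3844 for Vpreb1, 0.5245 for Igll1 and -1.0587 for Vpreb3.

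With 1 library left out, values in DF versus TF ran from -7.2265 to 1.8287 for Rag1, -1.1633 to 0.7229 for Vpreb1 and -1.514 to 0.2006 for Vpreb3. In DF versus TFD they ran from -4.4875 to 5.8798 for Rag1, -0.2368 to 0.798 for Dntt, -0.1785 to 0.2777 for Vpreb3, -2.7336 to 0.8079 for Igll1 and -0.0741 to 0.4987 for Cd79b. In TF versus TFD they ran from -0.176 to 1.2207 for Il7r, -0.4293 to 7.2391 for Rag1, -0.1155 to 1.5979 for Vpreb3, -0.2937 to 3.2715 for Igll1 and -0.6188 to 0.8982 for Blnk. Against WT they ran from -0.4166 to 0.0071 for Dnmt3a and -0.0508 to 0.0551 for Btk in DF, from -0.1029 to 0.2061 for Jak3, -0.2295 to 0.0107 for Atm and -0.3692 to 0.0846 for Erg in TF, and from -0.2643 to 0.1726 for Atm and -0.5682 to 0.3603 for Erg in TFD. Ratios to Cd79a ran from 1.1979 to 1.4179 for Il7r, -4.6151 to -3.7056 for Rag1, 1.1445 to 1.7607 for Dntt, -1.7046 to -1.341 for Vpreb3, -0.2979 to 0.4012 for Igll1, 2.1585 to 2.6324 for Cd79b and 1.0316 to 1.2363 for Blnk.

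Over all genes, DF versus TF had 520 lower and 203 higher, with 329 higher by DESeq2, 106 by library totals, and 131 to 704 lower and 38 to 286 higher with 1 library left out. DF versus TFD had 155 lower and 103 higher by DESeq2, 109 and 26 with only the groups compared, and up to 174 and 237 with 1 library left out. TF versus TFD had 1 and 1, with 21 and 105 by DESeq2, 0 and 0 with only the groups compared, 4 and 18 with the Xist term, and up to 16 and 60 with 1 library left out. Leaving out 1 library gave as few as 1167 lower in TF and 935 in TFD versus WT. The share of calls that were higher moved from 55.9% to 42.3% in DF versus WT and from 28.1% to 13.9% in DF versus TF with library totals. Rag2 and Vpreb1, with at most 4 and 8 reads in a mutant library, give no precise fold in single libraries.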

Other observations

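For each of the 10 genes, the gene outside them with the most similar pattern of log2 CPM over the 11 libraries was found, as a description. Il7r was closest to Camsap2 (Pearson r 0.997 across libraries), Cd79a to Cecr2 (0.995), Cd79b to Wdr60 (0.9945), Rag1 to Tonsl (0.987), Vpreb3 to Akap12 (0.987), Blnk to Zfp318 (0.986), Vpreb1 to Jade3 (0.976), Igll1 to Mapk11 (0.968), Dntt to Nfkbia (0.966) and Rag2 to Jmjd4 (0.961). All of these values share the split between 3 WT and 8 mutant libraries. Among the 10 genes, the 45 pairwise values of r had a median of 0.90 over all 11 libraries and of 0.53 over the 8 mutant libraries, where they ran from -0.83 to 0.93.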
